A study of Mus musculus with 24 samples.

Results

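The transcripts described here come from 69 genes with splicing factor symbols, of 20868 genes in the tables. They were chosen by gene symbol, from the RefSeq accession of each annotated 3′ untranslated region (3′UTR): SR proteins (Srsf, 11 genes), hnRNP proteins (Hnrnp, 21), snRNP proteins (Snrp, 12), the SF3A, SF3B and U2AF subunits (Sf3 and U2af, 12) and the PRPF proteins (Prpf, 13). SLAM-seq, which reads 4-thiouridine (4SU) built into RNA as T-to-C conversions after alkylation, was run on mouse preleukemic cells. These were c-Kit+ fetal liver cells on a C57BL/6 background, transduced with retroviruses carrying Meis1 and Hoxa9 and grown in SCF, IL-6 and IL-3. The cells were either control or conditional double knockouts (cDKO) of Tut4 and Tut7, the terminal uridylyl transferases that add uridines to RNA 3′ ends. In the study's mice both Tut4 and Tut7 were homozygous for floxed alleles (fl/fl), which control littermates also carried. The cDKO animals had in addition Vav-iCre, a transgene that deletes in blood-forming cells and their progeny. All cells were labelled with 2.9 µM 4SU for 12 h and collected 0, 60, 180 or 540 min after a change to medium without 4SU, with 3 replicates in each of the 8 groups.

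Most introns are removed by the spliceosome, which is assembled from small nuclear RNAs and their proteins. SR proteins mostly bind exonic enhancers and recruit the spliceosome, whereas hnRNP proteins coat nascent transcripts and often repress splice sites. The Sm proteins and the U1- and U2-specific proteins encoded by Snrp genes form the core of the snRNPs, SF3A, SF3B and U2AF recognise the branch point and the 3′ splice site, and the PRPF proteins act mainly in the U4/U6.U5 tri-snRNP and in remodelling. Many SR and hnRNP genes are also known to regulate their own mRNA through alternative splicing.

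Between 4380238 and 7041311 reads per library lay in 3′UTR intervals, with a median of 5321078. Tut4 was present at 68.1, 75.2 and 86.3 CPM (reads of a gene scaled to one common 3′UTR read total) in control and at 17.8, 30.2 and 18.6 CPM in cDKO libraries at 0 min, a log2 difference of -1.75 (edgeR adjusted p = 0.00118). Tut7 differed by -1.08 on the log2 scale (edgeR adjusted p = 0.00388), so both targeted transcripts were lower but not absent. The mean conversion rate over all intervals at 0 min was 1.64% ± 0.0261 (SD, n = 3) in control and 0.736% ± 0.169 in cDKO. Of 7 progenitor markers, the summed level was 3051 to 3763 CPM in control and 3859 to 6876 CPM in cDKO, most of it Hoxa9, at 1946 to 2801 and 3377 to 6543 CPM. Meis1 was at 0 in every control library and had a median of 1.30 CPM over the cDKO libraries. Median levels over all libraries of a genotype were lower in cDKO for Ptprc (227 against 175 CPM) and Kit (76.1 against 50.8 CPM). The same held for Spi1 (181 against 119.6 CPM) and Mpo (554 against 9.60 CPM), while Cd34 was higher (20.1 against 27.6 CPM). Mpo varied widely between cDKO libraries, from 0.712 to 220 CPM, with 68.3 ± 107 CPM at 0 min (mean ± SD, n = 3). The summed level of 5 erythroid markers was 0.372 to 3.07 CPM in control and 1302 to 2081 CPM in cDKO, nearly all of it Hbb-bt, while Hbb-bs did not exceed 0.2 CPM. The 3 mast cell and basophil markers summed to 6.26 to 18.8 and 56.2 to 93.2 CPM. Cpa3 was at 0 in every control library and Fcer1a at 0 in all, while the median of Mcpt8 was lower in cDKO (14.6 against 9.89 CPM). The 3 lymphoid markers summed to at most 0.529 CPM and the 3 non-hematopoietic markers to at most 1.59 CPM. These markers move with genotype, and their part in the genotype differences below was not tested.

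Splicing factor transcripts took up nearly the same share of the reads in both genotypes. At 0 min their summed level was 17408 ± 246 CPM in control and 17448 ± 610 CPM in cDKO (mean ± SD, n = 3). The hnRNP genes contributed most, 7610 ± 117 and 7898 ± 187 CPM, followed by the SR genes with 3502 ± 88.9 and 3426 ± 70.9 CPM. The SF3 and U2AF genes summed to 2596 ± 39.2 and 2565 ± 220 CPM, and the Snrp genes to 2532 ± 29.9 and 2579 ± 263 CPM. The PRPF genes formed the smallest class, with 1168 ± 30.8 CPM in control and 980 ± 48.5 CPM in cDKO. Levels are counts of reads from the 3′ end of each transcript, not divided by length. Because these are bulk libraries, fewer cells of a type and less RNA per cell cannot be told apart.

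On this CPM scale the highest level over the 12 control libraries was that of Hnrnpab, an RNA-binding protein of the hnRNP A/B family, with a mean of 1040 CPM (range 838 to 1176). Srsf2, an SR protein that binds exonic enhancers, followed with 936 CPM, and Hnrnpa0, which binds AU-rich elements, with 868 CPM. U2af2, the large U2AF subunit that binds the polypyrimidine tract, was at 722 CPM, and the Sm protein gene Snrpe at 608 CPM. The second highest of their classes were Srsf3 (475 CPM), Snrpd1 (356 CPM) and Sf3b2 (336 CPM). Prpf8, the largest protein of the U5 snRNP, led its class with 406 CPM, and Prpf3, a tri-snRNP protein, followed with 168 CPM. Members at the low end included Srsf12, which had 0 reads in every library. Snrpn and Hnrnpa1l2-ps2, the latter a pseudogene by its symbol, did not pass the expression filter. The other 66 members were tested.

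Labelled splicing factor transcripts decayed more slowly than the typical transcript in control cells. The median tested member kept 90.5% of its 0 min conversion rate at 60 min, 75.2% at 180 min and 12.1% at 540 min. The corresponding values over 9260 genes were 88.9%, 54.4% and 7.60%. The loss was therefore small up to 180 min and large between 180 and 540 min. Members of the Snrp class kept the largest share at 540 min, 35.3% in control and 46.0% in cDKO. The hnRNP class followed with 14.0% and 22.0%. The SF3 and U2AF genes kept 10.6% and 11.4%, and the SR genes 6.89% and 9.39%. The PRPF genes kept 7.59% and 15.3%, beside 7.60% and 12.6% over all genes.

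**Figure D1:**
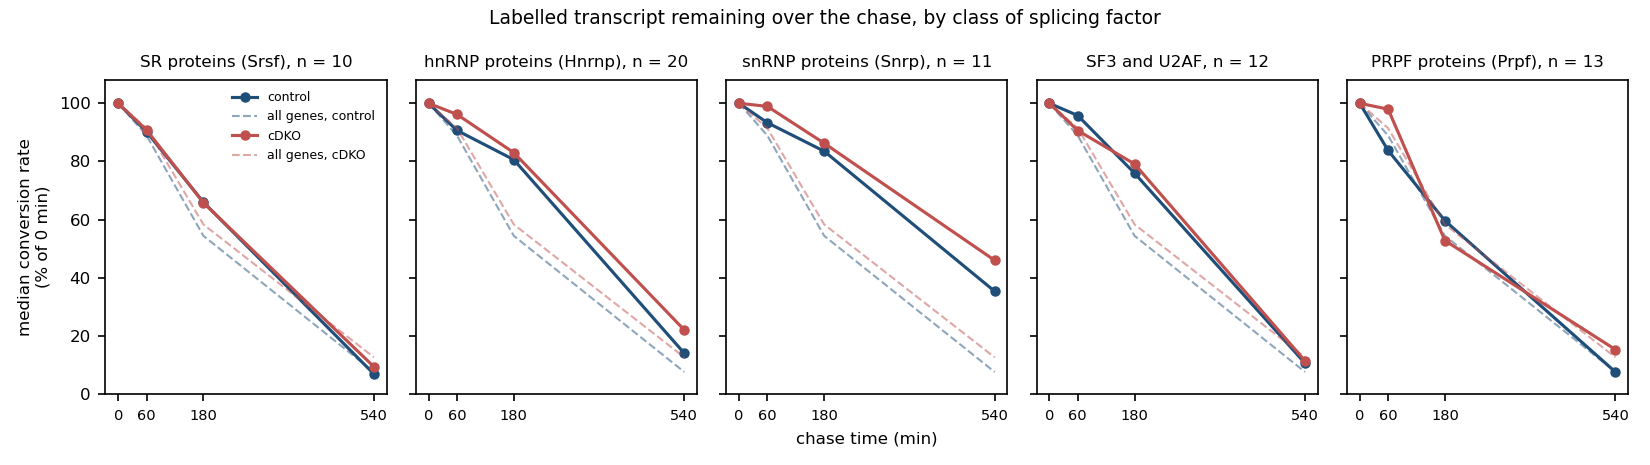
Median T-to-C conversion rate as a percentage of its 0 min value (y axis) against chase time in min (x axis), in 1 panel for each class of splicing factor, for control (blue circles) and cDKO (red circles), with the median over all genes as dashed lines. The Snrp panel ends highest, at 35.3% in control and 46.0% in cDKO, while the SR panel ends at 6.89% and 9.39%. The Snrp panel includes Snrpa, Snrpc, Snrpd2, Snrpe and Snrpg, of whose reads over 20% were multimapping.

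Half-lives were fitted to conversion rates normalised to 0 min, with a single exponential. A half-life passed the filter for 47 of the 66 members, which left 8 SR, 14 hnRNP, 7 Snrp, 10 SF3 or U2AF and 8 PRPF genes. Their median was 288 min in control libraries and 326 min in cDKO libraries, beside 224 and 251 min over 3712 genes. In control the class medians were 158 min for PRPF, 245 min for SR, 281 min for SF3 and U2AF, 310 min for hnRNP and 465 min for Snrp genes. The replicate medians of the PRPF class were 172, 139 and 185 min and those of the SR class 259, 237 and 217 min. For SF3 and U2AF they were 273, 302 and 277 min, for hnRNP 329, 348 and 305 min and for Snrp 437, 437 and 512 min. The order of the 5 classes was the same in each control replicate, and in each cDKO replicate. The ranges over control replicates did not overlap between classes, but hnRNP, from 305 min, began just above SF3 and U2AF, which reached 302 min. The Snrp class rested on few genes of which many share sequence with other loci. Without members that had over 20% multimapping reads, 3 Snrp genes were left, with medians of 377 and 497 min in control and cDKO. Snrpa1, Snrpd1 and Snrpf were under that limit but failed the filter at 0 min. Fitted without it, their control half-lives were 218, 278 and 658 min.

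The half-life fit depended on the late part of the chase. Without the 540 min libraries, the control medians were 375 min for SR, 592 min for hnRNP, 703 min for Snrp and 475 min for SF3 and U2AF. Straight lines through the log rates, with the intercept left free, gave 144, 212, 354 and 172 min for the same classes. The PRPF median was 154 min without the 540 min libraries and 174 min, over 5 genes, with the straight lines, under which PRPF was not the shortest-lived class. The half-lives in min therefore apply to the fit they came from.

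In cDKO libraries the fitted half-lives were mostly longer, as for the transcriptome. The median log2 ratio of cDKO over control was 0.20 for the 47 members and 0.19 for all genes, with 36 of 47 members and 68.6% of all genes longer. By class it was 0.52 for Snrp (7 of 7 longer), 0.40 for PRPF (7 of 8), 0.17 for hnRNP (11 of 14), 0.14 for SR (6 of 8) and -0.00 for SF3 and U2AF genes (5 of 10). The cDKO medians were 764, 209, 363, 253 and 310 min in that order. All 3 cDKO replicate half-lives exceeded all 3 control ones for 11 of the 47 members (23.4%), against 17% of 3712 genes, and all 3 lay below for 0 members, against 3.23% of genes. The median 0 min conversion rate over the members was 1.76% ± 0.0214 in control and 0.795% ± 0.170 in cDKO (mean ± SD of 3 libraries). With a background of 0.0692% subtracted, the mean rate at 540 min in cDKO of 418 short-lived genes that include 0 members, the median log2 ratio was 0.10 over 44 members and 0.07 over all genes. Under that subtraction the ratio was 0.39 for Snrp, 0.30 for PRPF, 0.04 for hnRNP (8 of 13 longer), 0.04 for SR (4 of 8 longer) and -0.22 for SF3 and U2AF genes. Replicate 3 of cDKO was the least labelled, with a members' median rate of 0.598% at 0 min against 0.881% and 0.904%. Without it the ratio was 0.09 over 60 members and 0.06 over 19 hnRNP genes, against 0.13 over all genes, and without cDKO replicate 1 it was 0.30 over 32 members and 0.27 over 7 hnRNP genes.

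**Figure D2:**
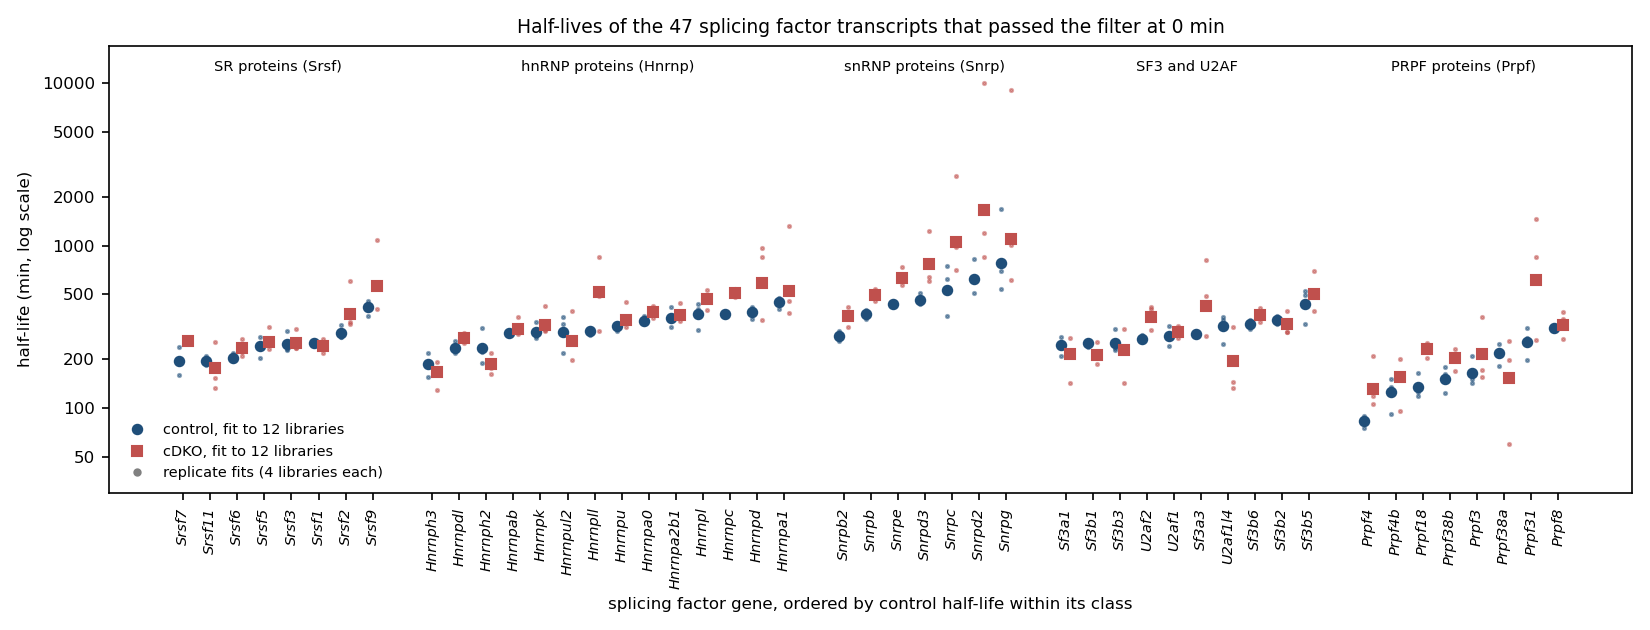
Fitted half-life in min on a log axis (y axis) of the 47 splicing factor transcripts that passed the filter (x axis), ordered by control half-life within each class, for control (blue circles) and cDKO (red squares). Small points are fits to single replicates, and the members span 83.3 min (Prpf4) to 780 min (Snrpg) in control.

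Members of 1 class differed widely in half-life. The shortest-lived was Prpf4, a U4/U6 snRNP protein whose annotated 3′UTR interval is mm10 chr4:62423412-62426990 on the plus strand. Its conversion rates in control were 2.48%, 2.0% and 2.03% at 0 min and 0%, 0% and 0.0756% at 540 min, and in cDKO 0.940%, 0.773% and 0.640% at 0 min and 0.042%, 0.0716% and 0.0842% at 540 min. At 540 min the rates of both genotypes lay under or around the background of 0.0692%. The fitted half-life was 83.3 min in control (replicates 75.3, 86.1 and 89.4) and 131 min in cDKO (106, 118 and 208), without overlap, and 78.0 and 108.4 min with the background subtracted. Prpf8 had the longest half-life of its class, 311 and 325 min, and Prpf18, which acts in the second step of splicing, had 135 and 230 min.

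Among SR genes the range ran from Srsf7, with 194 min in control (replicates 237, 160 and 197) and 257 min in cDKO (252, 267 and 250.2), to Srsf9, with 418 and 561 min. The Srsf7 replicates of the 2 genotypes did not overlap. Among hnRNP genes Hnrnph3, whose interval overlaps Rufy2 on the other strand, was shortest with 186 and 167 min. Hnrnpa1, a general splicing repressor, was longest with 448 and 522 min, but 97.5% of its reads were multimapping. Sf3a1 and Sf3b5, subunits of the U2 snRNP, bounded their class with 243 and 216 min for the first and 437 and 501 min for the second. Snrpb2, the U2-specific B″ protein, was the shortest-lived Snrp member with 279 min (replicates 285, 297 and 257) and 370 min (368, 419 and 316), without overlap. The Sm protein genes Snrpg and Snrpd2 were longest, with 780 and 1092 min for Snrpg and 620 and 1651 min for Snrpd2. Snrpg replicates spread widely and overlapped between genotypes (control 1670, 697 and 544, cDKO 617, 9103 and 1011). For Snrpd2 the control replicates were 508, 601 and 827. Those of cDKO were 1202, 854 and 10000, the last at the upper bound of the fit. Multimapping reads made up 38.6% of the Snrpg reads and 49.7% of the Snrpd2 reads.

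The genotype difference in decay was tested on the conversion counts themselves, as a genotype by hour interaction on the log2 scale. None of the 66 members passed (edgeR, adjusted p under 0.05), where 0.13% of 9207 genes did. At an unadjusted p under 0.05 there were 15 members (22.7%), against 17.2% of genes, and DESeq2 called 3 of 63 (4.76%), against 4.24% of 6529 genes. With the library-wide conversion rate in the offset, 4 members had an unadjusted p under 0.05, against 11.7% of genes, and the median estimate was 0.02 over the members and 0.03 over all genes. The estimate was above 0, that is slower loss in cDKO, for 59 members and below 0 for 7. Its median over the members was 0.06 log2 units per hour, beside 0.07 over all genes tested. By class the medians were 0.09 for PRPF, 0.07 for SR, 0.05 for hnRNP, 0.05 for Snrp and 0.03 for SF3 and U2AF genes. The Snrp median thus lay below that of all genes, with 3 of 11 genes negative, although Snrp had the largest half-life ratio. No background was subtracted in this fit, and the 0.0692% given above is a larger part of the lower cDKO rates. With it subtracted, the members' median log2 half-life ratio was 0.10, against 0.20 without. Its part in the decay estimates is not given here.

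The members with the smallest p in the direction of slower loss in cDKO were Prpf4, Srsf7 and Snrpb2, the 3 genes that DESeq2 called. The Prpf4 estimate was 0.31 ± 0.0904 log2 units per hour (SE, edgeR adjusted p = 0.104). Srsf7 was at 0.11 ± 0.0348 (edgeR adjusted p = 0.112) and Snrpb2 at 0.12 ± 0.0403 (edgeR adjusted p = 0.137). In the other direction the smallest p values were those of Prpf40b, at -0.09 (edgeR adjusted p = 0.752), Snrpf, at -0.03 (0.803), and Snrpd2, at -0.02 (0.835). Snrpf, whose interval overlaps Ccdc38 on the other strand, was at 32.3 CPM in control replicate 2 at 540 min and at 13.8 CPM in cDKO replicate 2 at 0 min, below its 22 other libraries. For Snrpd2 the count test and the fitted half-lives of 620 and 1651 min pointed in opposite directions. Its control rates were 1.11%, 1.23% and 0.956% at 0 min and 0.649%, 0.698% and 0.664% at 540 min. The cDKO rates were 0.366%, 0.327% and 0.197% at 0 min and 0.211%, 0.182% and 0.230% at 540 min, so the third cDKO replicate did not decline.

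The classes also differed in their 3′UTRs, a feature that the choice of genes did not use. The median annotated interval was 207 bases for Snrp and 424 bases for SF3 and U2AF genes, against 1523 bases for SR, 1112 bases for PRPF and 1000 bases for hnRNP genes. Over the 47 members with a half-life, interval length and control half-life had a Spearman correlation of -0.47, beside -0.41 over 3700 genes, where the points share libraries and genes are not independent replicates. The 12 members with intervals up to 300 bases had a median control half-life of 407 min and the 21 members with over 1000 bases one of 251 min. Prpf4, with 3579 bases and 83.3 min, and Snrpd2, with 76 bases and 620 min, followed the direction of this correlation. Other members did not. Hnrnpd, with the longest interval among the 47, of 5399 bases, had 388 min, and Prpf3, with 197 bases, had 165 min.

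**Figure D3:**
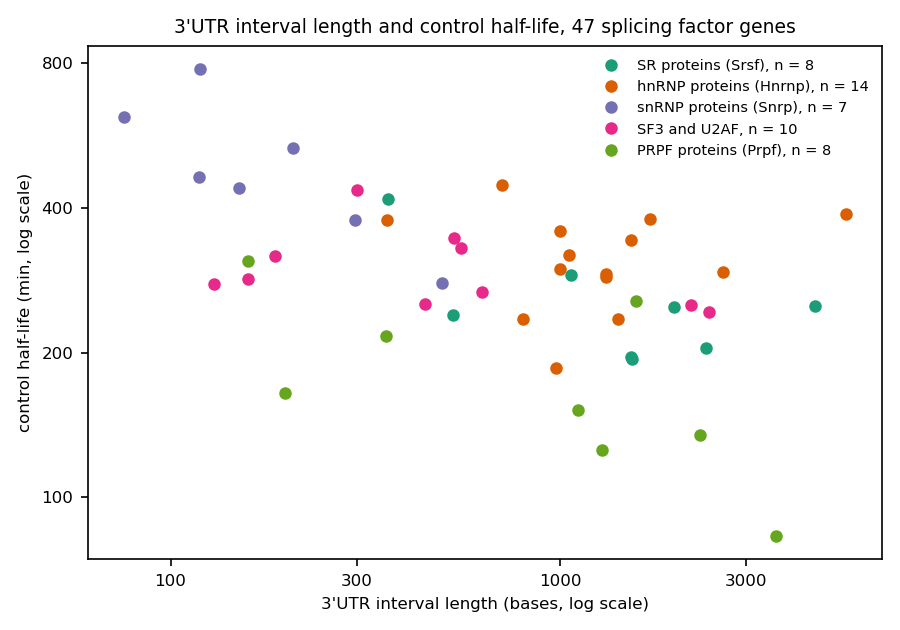
Control half-life in min (y axis, log scale) against the length of the annotated 3′UTR interval in bases (x axis, log scale), 1 point for each of 47 splicing factor genes, coloured by class. Snrp genes lie mostly at the upper left, and Prpf4, with 3579 bases and 83.3 min, lies at the lower right. Hnrnpd, with 5399 bases and 388 min, lies farthest to the right.

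AU-rich sequences are known as binding sites of proteins that regulate mRNA decay, and they were counted on the transcript strand. The intervals of 58 members, and of 8603 tested genes, were matched to GENCODE vM39 transcripts by length and T count after the stop codon. The pentamer ATTTA was present in 36 of the 58 members (62.1%) and in 65.0% of the matched genes. By class it was found in 13 of 15 hnRNP, 6 of 7 SR, 9 of 12 PRPF, 4 of 12 Snrp and 4 of 12 SF3 or U2AF genes. The heptamer TATTTAT, which contains the pentamer, was found in 9 members (15.5%) and in 26.6% of the genes, without scaling for length. Among all genes with a half-life, the median was 169 min for 826 genes with the heptamer and 249 min for 2238 without. The 5 members that held the heptamer and had a half-life are shown because they span much of the half-life range, with the heptamer in capitals and flanks in lower case, 5′ to 3′:
Prpf18: tctatgtggTATTTATagaaaatat
Sf3b1: taatcagttTATTTATaagcagcta
Snrpb2: ggacttggtTATTTATagtgtttgt
Hnrnpll: tataatttgTATTTATtatttaatc
Hnrnpc: tgggtattgTATTTATtcaggtgac
Their control half-lives were 135 min for Prpf18, 251 min for Sf3b1, 279 min for Snrpb2, 299 min for Hnrnpll and 380 min for Hnrnpc. The same 7 letters thus lay in transcripts on both sides of the members' median of 288 min. The intervals of Snrpg, Snrpd3 and Snrpd2, of 119, 118 and 76 bases, held no ATTTA, and that of Prpf4 held 4 copies but no heptamer.

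Total abundance of few splicing factor genes differed between genotypes. At 0 min 7 of 66 members passed (edgeR, adjusted p under 0.05), 2 higher and 5 lower in cDKO, against 13.4% of 10186 genes. At 60 min 10 passed, 1 higher and 9 lower, against 20.2% of 10141 genes, and at 180 min 10 passed, 4 higher and 6 lower, against 18.9%. At 540 min 7 passed, 2 higher and 5 lower, against 19.2%. The members' share was thus below that of all genes at each time. The count at 0 min changed when single libraries of either genotype were left out. Without control replicate 1, 2 or 3 it was 1, 0 or 1, and without cDKO replicate 2 it was 11. At 60 min it was 4, 5 and 1 without control replicates 1, 2 and 3 and 4 without cDKO replicate 1. At 180 min it was 5 and 4 without control replicates 1 and 2, and at 540 min 12 without cDKO replicate 3. The all-gene shares of these fits are not given here, so these counts do not set the members apart from other genes. No member was higher at one time and lower at another, and 52 members passed at none.

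Prpf3, Prpf38b, Sf3b4, Srsf11 and Hnrnpll were lower and Hnrnpa1 was higher in cDKO at all 4 times, 6 of 66 members (9.09%) against 8.31% of the 9896 genes tested at all times. Prpf3 (mm10 chr3:95830622-95830818, minus strand), which stabilises the U4/U6 duplex, was at 175, 146.6 and 151 CPM in control and at 124, 90.4 and 100.2 CPM in cDKO libraries at 0 min. Its log2 differences were -0.58 ± 0.134 (SE, edgeR adjusted p = 0.0213), -0.78 (0.0004), -0.61 (0.0013) and -0.66 (0.000916) at 0, 60, 180 and 540 min. All control libraries lay above all cDKO libraries at each time, which also held for the other 5 genes in the direction of their call. Such a separation at all 4 times was found for 7 members (10.6%) and for 14.4% of genes. Prpf38b (chr3:108902807-108903918, minus strand), related to a factor of spliceosome activation, was at 77.8, 79.1 and 82.7 CPM in control and 46.6, 57.9 and 46.2 CPM in cDKO. Its log2 differences were -0.65 ± 0.141 (edgeR adjusted p = 0.0158), -0.48, -0.57 and -0.56.

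Sf3b4 (chr3:96177167-96177564, plus strand), a branch-site-binding subunit of SF3B, was at 183, 188 and 208 CPM in control and 141, 149 and 140.3 CPM in cDKO at 0 min. It differed by -0.41 ± 0.0950 (edgeR adjusted p = 0.0207), -0.30, -0.44 and -0.36 on the log2 scale. Srsf11 (chr3:158010493-158012008, minus strand), an SR-related protein, was at 166, 167 and 172 CPM in control and 118, 120.2 and 122 CPM in cDKO. Its log2 differences of -0.47 ± 0.0887 (edgeR adjusted p = 0.00828), -0.45, -0.41 and -0.60 came with little spread between replicates at 0 min.

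Hnrnpll (chr17:80029487-80030484, minus strand), a regulator of alternative splicing known from lymphocytes, was at 94.3, 94.3 and 88.9 CPM in control and at 74.0, 58.6 and 59.4 CPM in cDKO. It differed by -0.52 ± 0.128 (edgeR adjusted p = 0.0277), -0.36, -0.40 and -0.61. Hnrnpa1 (chr15:103244256-103244962, plus strand) was at 489, 498 and 543 CPM in control and 687, 700.2 and 659 CPM in cDKO at 0 min. Its log2 differences were 0.44 ± 0.0843 (edgeR adjusted p = 0.00954), 0.38, 0.35 and 0.43. With multimapping reads left out, few Hnrnpa1 reads remained and the differences were 0.10, 0.52, -0.02 and 0.52 (edgeR adjusted p = 0.817, 0.126, 0.964 and 0.168). Whether the reads counted for Hnrnpa1 came from that locus or from near-identical copies cannot be told apart.

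**Figure D4:**
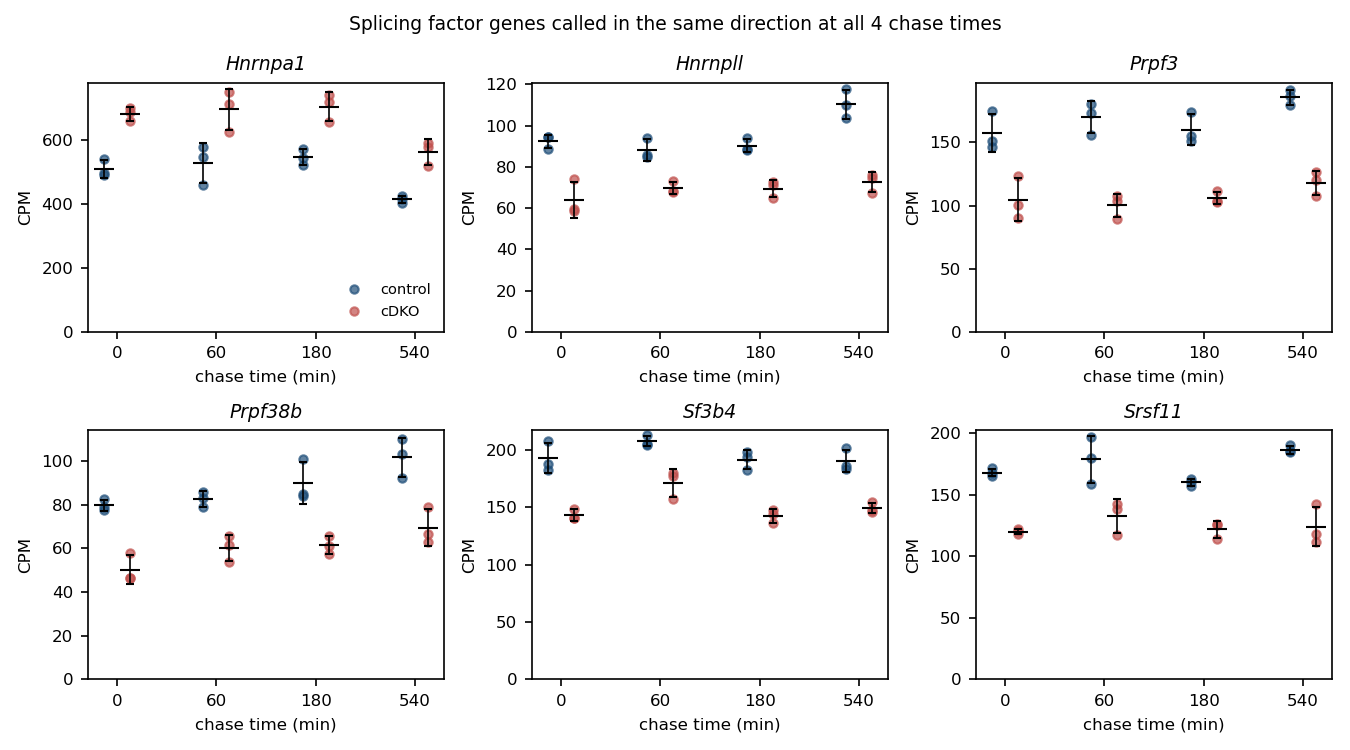
Level in CPM (y axis, from 0) at each chase time in min (x axis) of the 6 splicing factor genes that differed between genotypes in the same direction at all 4 times. Points are libraries, bars are mean ± SD of 3 replicates, and the control and cDKO points do not overlap at any time for any of the 6 genes.

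Prpf3, Prpf38b, Sf3b4 and Srsf11 all lie on chromosome 3, and they were the only members there among those tested. Of 483 tested genes on chromosome 3, 185 (38.3%) were lower in cDKO at 0 min and 18 were higher, with a median log2 difference of -0.51, against 5.06% lower and a median of 0.02 on other chromosomes. The share of chromosome 3 genes that were lower was 50.2%, 49.0% and 53.7% at 60, 180 and 540 min, against 8.22%, 7.84% and 8.22% elsewhere. The log2 differences of the 4 members, -0.41 to -0.65 at 0 min, lay around the chromosome's median. Of the 62 tested members on other chromosomes, 3 passed at 0 min (4.84%), 6 at 60 min (9.68%), 6 at 180 min (9.68%) and 3 at 540 min (4.84%), in either direction. The matching shares of all genes on other chromosomes were 11.9%, 18.5%, 17.2% and 17.4%. The part of the chromosome-wide difference in the calls of these 4 genes was not tested.

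A further 8 members passed at 1 to 3 times. Hnrnpk, which binds C-rich RNA, was higher in cDKO, by 0.32 at 180 min (edgeR adjusted p = 0.01), as was Hnrnpf, by 0.27 at 180 min and 0.29 at 540 min, of whose reads 97.3% were multimapping. Sf3b6, the branch-site subunit p14, was higher by 0.36 at 0 min and 0.24 at 180 min. Lower in cDKO were Prpf8, Sf3b3, Srsf9 and Snrpd3 at 60 min, by -0.23, -0.32, -0.24 and -0.32, and Sf3a1 at 180 min, by -0.36. These 8 were named after their values were seen. Snrpd3 was the only Snrp gene to pass at any time.

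Over the chase more members were called in control libraries than were called between genotypes. For cDKO the count was 0 by the unpaired test, 2 with a replicate block and 9 with all libraries in one fit. No member passed for a genotype difference in this change. In control libraries 23 of 66 members passed between 540 and 0 min, 7 higher and 16 lower, against 16.2% of 10226 genes (edgeR, adjusted p under 0.05). The hnRNP class held 3 that were higher and 8 that were lower, SR 1 and 3, PRPF 3 and 1, Snrp 0 and 2, and SF3 and U2AF 0 and 2. The median log2 change was -0.08 over the members and -0.13 over the hnRNP genes, against 0.00 over all genes. The summed hnRNP level went from 7610 ± 117 to 6911 ± 79.9 CPM in control and from 7898 ± 187 to 7517 ± 394 CPM in cDKO. The batch field of the labels holds the chase time, so time and batch cannot be told apart here. Without control 0 min replicate 2 the count was 14.

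U2af1, the small U2AF subunit that reads the AG of the 3′ splice site, showed the largest change among the members (chr17:31647082-31647210, minus strand). It was at 177, 188 and 176 CPM at 0 min and at 106, 107.6 and 95.4 CPM at 540 min in control, a log2 change of -0.84 ± 0.0828 (edgeR adjusted p = 3.5e-06). Its control mean at 180 min, 223 CPM, lay above that at 0 min, so the level did not fall steadily. Snrpa1, the U2-specific A′ protein, was at 105, 115 and 109 CPM and then 59.5, 73.0 and 74.1 CPM, a change of -0.71 (edgeR adjusted p = 0.000191). Its mean passed through 110 CPM at 60 min and 88.4 CPM at 180 min.

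Hnrnpdl, a paralogue of Hnrnpd, was at 281, 282 and 293 CPM at 0 min, had means of 357 and 360 CPM at 60 and 180 min, and was at 186, 166 and 207 CPM at 540 min in control. Its change from 0 to 540 min was -0.65 (edgeR adjusted p = 2.4e-05), with the intermediate times above both ends. Prpf4b, a kinase that phosphorylates spliceosomal proteins, moved the other way, from 36.2, 28.6 and 35.0 to 57.3, 50.1 and 45.9 CPM, a change of 0.58 (edgeR adjusted p = 0.00777). Srsf2 went from 1022, 1044 and 1068 to 817, 830 and 756 CPM, a change of -0.42 (edgeR adjusted p = 4.7e-05). The other 3 of the 8 largest changes were those of Hnrnpa0 (-0.40), Prpf31 (-0.39) and Hnrnpc (-0.39), and the 0 and 540 min libraries did not overlap for any of the 23 genes. Over all 66 members 33 (50%) did not overlap, against 33.6% of genes.

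**Figure D5:**
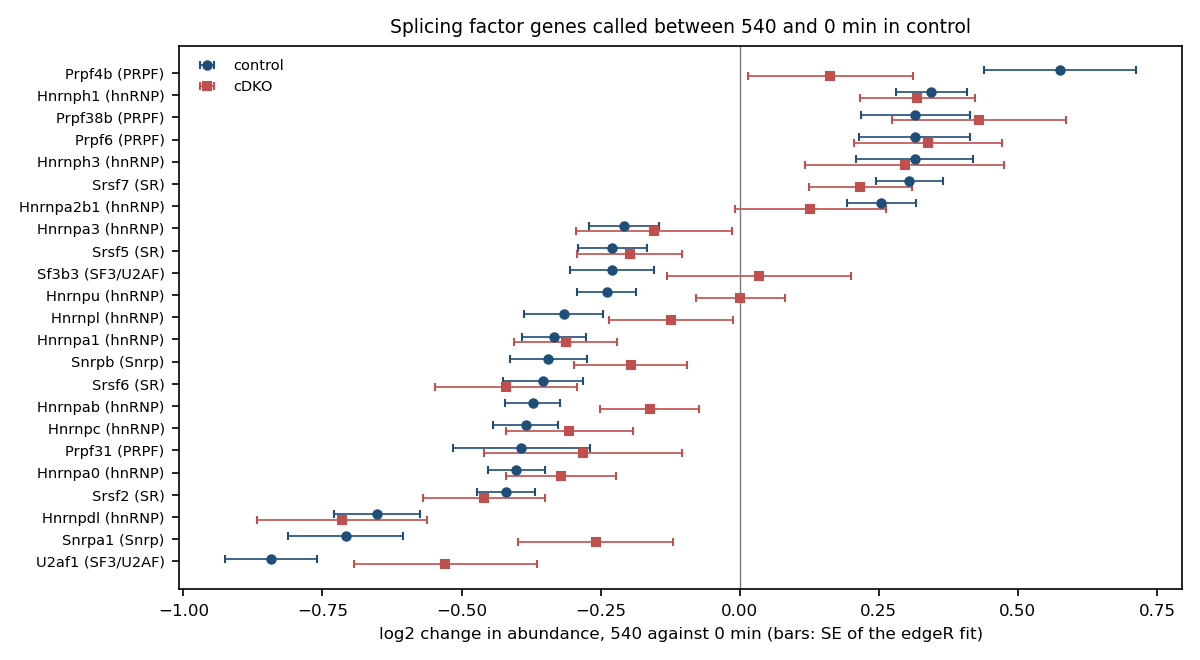
Log2 change in abundance from 0 to 540 min (x axis) of the 23 splicing factor genes that passed in control (y axis), for control (blue circles) and cDKO (red squares). Bars are the SE of the edgeR fit, and U2af1 is the lowest at -0.84 in control.

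In cDKO libraries none of the 66 members passed between 540 and 0 min by the same test, against 0.117% of 10235 genes, with 16 members (24.2%) and 11.1% of genes at an unadjusted p under 0.05. DESeq2 called 2 of 64 members, against 1.67% of 7113 genes. With all 24 libraries in one fit, which shares the spread of the other groups, 9 members passed, 2 higher and 7 lower, against 4.04% of 10846 genes. The replicate numbers paired the cDKO libraries of these times, and with the replicate as a block Hnrnpdl, at -0.72 (edgeR adjusted p = 0.0166), and Srsf2, at -0.46 (edgeR adjusted p = 0.0292), passed, against 1.25% of genes. In cDKO U2af1 was at 162, 199 and 134 CPM at 0 min and 131, 113 and 109 CPM at 540 min, a change of -0.53 (edgeR adjusted p = 0.323). Its first cDKO group spread more widely than the control group. Of the 23 genes called in control, 21 had the same sign in cDKO and 11 had an unadjusted p under 0.05. The matching shares of all genes called in control were not counted, so neither count sets the members apart. The difference between genotypes in the change over the chase passed for none of the 66 members and for 0% of 10651 genes, by edgeR. It passed for none of the members also with the replicate block and by DESeq2, which called 0.0429% of 13976 genes. An unadjusted p under 0.05 was found for 3 of the 66 members (4.55%), against 5.23% of genes.

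Of 87 other listed genes of the splicing machinery, outside the 5 classes, 85 were tested. In cDKO 3 were higher and 4 lower at 0 min, 5 and 10 at 60 min, 3 and 12 at 180 min, and 10 and 9 at 540 min, where the all-gene shares were those given above for the members. Those lower at all 4 times were Bcas2, a PRP19 complex protein, Clk2, a kinase of SR proteins, and Mbnl1, a regulator of alternative splicing, by -0.77, -0.71 and -0.999 at 0 min, and all 3 lie on chromosome 3. The 62 genes that passed the filter had median half-lives of 231 and 264 min in control and cDKO, and 40 of them were longer in cDKO, at a log2 ratio of 0.08 in the median. The 15 of these genes listed for the U1 and U11/U12 snRNPs, the tri-snRNP and the LSM proteins had medians of 324 and 334 min. Their log2 ratio was 0.04, beside the 0.52 of 7 Snrp genes, or 0.41 over 11 without the SD filter. The 5 kinases that act on SR proteins had medians of 150 and 141 min. Between 540 and 0 min in control 14 of the 85 rose and 12 fell, against the 16.2% of all genes called and the 7 and 16 of the 66 members, with 11 and 5 of the 35 other splicing regulators among them. In the decay interaction 0 of 83 passed.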

How the data were processed

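The authors prepared QuantSeq FWD 3′-end libraries, sequenced 85-base single reads and ran SlamDunk 0.4.3 on mm10 (GRCm38) 3′UTR intervals. Aligner and variant settings were not given in the sources used here. Per the file headers, the deposited values are whole-number counts of reads, conversions and covered T positions, a conversion rate as a fraction, and CPM scaled by the authors. Count columns were summed per gene over 29022 distinct intervals, after 99.17% of lines were matched to a symbol. CPM here are a gene's reads scaled to the library's 3′UTR reads.

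The members, gene lists and marker lists were chosen with earlier results of these data known. Abundance was tested by edgeR 4.0.16 quasi-likelihood fits (R 4.3.3, limma 3.58.1), per chase time for genotype, and per genotype for 540 against 0 min, on all genes past edgeR's expression filter, with Benjamini-Hochberg adjustment and a threshold of 0.05. Decay was tested as genotype by hour on conversion counts with covered T positions as offset, for genes with at least 50 conversions. SEs are the estimate over the root of its F statistic. Half-lives followed the methods of the study in normalising rates to 0 min, in a single exponential, and in the filter at 0 min (normalised mean over 0.8, SD under 0.3). Here rates were divided by their own 0 min mean, so the cut on the mean could not fail and only the SD cut acted. The upper bound of 10000 min and the coverage of at least 100 in every library were chosen here. DESeq2 1.42.0 was an alternative. Named genes were those called at all 4 times, on chromosome 3, highest in level, extreme in half-life, largest in change over the chase, or smallest in decay p. The scripts were tested on simulated data.

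Within every group, replicates were further apart than counting noise (chi-square per degree of freedom 3.31 to 26.7 over 24 pairs), so none was a duplicate. The methods call them biological triplicates, and which cultures they came from is not given in the labels. Same-numbered libraries paired only for cDKO at 0 and 540 min (correlations of deviations 0.263, 0.556 and 0.689). For the other comparisons the lowest correlation was -0.075 to -0.032. With 3 against 3 libraries an exact permutation test cannot give a p below 0.1, so no such test is printed for half-lives.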

Additional observations from a re-analysis of the deposited data

How the results depend on the processing

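Leaving out each library in turn, the members called by genotype numbered 0 to 11 at 0 min, 1 to 11 at 60 min, 4 to 11 at 180 min and 5 to 12 at 540 min, and those called over the chase in control 14 to 21. With the replicate block (replicate number as a factor) the genotype counts were 5, 7, 9 and 6, the control chase count was 21 and the decay count 0; the same number pairs samples only in the cDKO chase, where the block gave 2. Without chromosome 3 the genotype counts were 2, 6 and 3 at 0, 60 and 540 min. The cDKO chase count was 2 with DESeq2 and 9 with all 24 libraries in one fit, and the decay count was 3 with DESeq2. Hnrnpa1 at 180 min was -0.021 without multimapping reads, against 0.35 with them. The causes of these changes were not tested. All-gene shares of the leave-one-out and block fits are not given beside these counts.

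Median half-lives moved with the model. With the background rate subtracted they were 284 min for hnRNP in control, and in cDKO 219 min for SR, 314 min for hnRNP, 615 min for Snrp, 269 min for SF3 and U2AF and 182 min for PRPF, with a log2 ratio of -0.22 for SF3 and U2AF. The log-linear fit gave 144 and 178 min for SR in control and cDKO, 212 and 270.2 min for hnRNP, 354 and 535 min for Snrp, 172 and 202 min for SF3 and U2AF, a ratio of 0.17 for the last, and 241 min for PRPF in cDKO. Without the 540 min libraries the values were 375 and 333 min for SR, 592 and 762 min for hnRNP, 703 and 2010 min for Snrp with a ratio of 1.00, 475 and 617 min for SF3 and U2AF, and 195 min for PRPF in cDKO. Without the SD filter SR in control was 222 min, Snrp in cDKO 497 min, SF3 and U2AF in cDKO 260.4 min and PRPF in control 187 min. With Sf3 genes counted among Snrp, that class was at 362 and 461 min, and without multimapping members at 377 and 497 min.

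Leaving out single replicates gave 307 to 338 min for hnRNP in control, and in cDKO 311 to 397 min for hnRNP, 577 to 732 min for Snrp, 253 to 306 min for SF3 and U2AF and 201 to 317 min for PRPF. The log2 ratios then ranged from -0.0067 to 0.18 for SR, -0.16 to 0.044 for SF3 and U2AF and 0.32 to 0.88 for PRPF. Labelling in cDKO, near 0.795% at 0 min, and the number of conversions limit the precision of decay in that genotype. The estimates themselves also moved with the background. With it subtracted, the median log2 ratio over all genes was 0.07, against 0.19 without. The share of genes longer in cDKO was then 56.9%, against 68.6%.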
